A study of Caenorhabditis elegans with 30 samples.

Results

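The lipid binding protein genes lbp-1 to lbp-9 of C. elegans were followed across 30 Affymetrix arrays of whole young adult worms. Members were the probe sets that the platform annotation gives to a single gene named lbp-1 to lbp-9, which found 9 probe sets, 1 for each gene, of 22625 on the array, and no probe set shared with another gene. The 10 groups of 3 arrays were wild type N2 kept on isotonic agar (51 mM NaCl), N2 moved to hypertonic agar (200 mM NaCl) for 15 min, 1 h or 6 h, N2 grown on hypertonic agar for 1 generation, and 5 mutants that stayed on isotonic agar throughout. The mutants were dpy-10(e128), dpy-9(e12), osm-11(n1604), osm-8(n1518) and osm-7(n1515), each represented by a single allele, and they are called osr mutants because they resist osmotic stress. Worms were synchronized with hypochlorite, raised at the same temperature and sorted as young adults before RNA was extracted. Each value below is a log2 intensity from a pool of whole sorted animals, so a gene that is lower can reflect fewer cells of a type or less RNA per cell, and these cannot be told apart.

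The lbp genes encode small proteins of the fatty acid binding family, which hold a fatty acid or another hydrophobic ligand inside a beta-barrel and carry it through the aqueous parts of a cell or body. Such carriers deliver fatty acids to membranes, to the sites of beta-oxidation and to nuclear receptors, among them NHR-49 and NHR-80, which control genes of fat use and desaturation in the worm. LBP-1, LBP-2 and LBP-3 begin with a secretion signal and are predicted to leave the cell, whereas the other members are predicted to stay inside it. Among the mutated genes, dpy-9 and dpy-10 encode cuticle collagens.

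Array medians ranged from 9.97 to 14.5 intensity units, and arrays of a group correlated at r = 0.983 to 0.996. The methods describe replicate worm preparations for each time point, of which 3 were hybridized after selection on RNA quality. They do not say whether each came from its own culture, so p-values measure the spread between these preparations. All 9 comparisons with isotonic N2 share the same 3 isotonic arrays. A change passed the test when its adjusted p (limma, Benjamini-Hochberg over the tested probe sets, which were 61.5% of the 22548 that are not controls) was at most 0.01, and it was called when it also reached 3-fold. The median change of all tested probe sets lay between -0.07 and -0.01 in the 4 exposures, at -0.07 and -0.11 in osm-7 and osm-11, and at -0.22, -0.23 and -0.16 in dpy-10, dpy-9 and osm-8, and the changes below are not corrected for it unless stated. The filter on low values, set over all 30 arrays, kept all 8 intestine, all 7 hypodermis and cuticle and all 9 oocyte and early embryo markers, while 1 muscle marker (hlh-1), 1 pharynx marker (ceh-22), 1 neuron marker (rab-3) and 3 sperm markers (spe-9, spe-38 and fer-1) lay below it.

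Of the 9 members, 8 passed the filter on low values. The exception, lbp-8, encodes a chaperone that carries fatty acids from the lysosome to the nucleus. Its log2 intensity lay between 2.74 and 3.31 on the 30 arrays, its third-highest value of 3.13 was under the lowest such value kept, 3.24, and without the filter its adjusted p (limma) ran from 0.0268 for a change of -0.27 in dpy-9 to 0.9999. No change of lbp-8 was detectable at this signal.

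The osr mutants fell into different patterns for different members. The gene lbp-1, for a predicted secreted protein, was called in osm-7, osm-8 and osm-11 and not in dpy-9 or dpy-10. The genes lbp-5 and lbp-7, for predicted intracellular proteins, were called in osm-8, dpy-9 and dpy-10 and not in osm-7 or osm-11. Of the 8 members tested, 2 were called in dpy-10 (against 28.3% of all probe sets tested), 2 in dpy-9 (against 24%), 3 in osm-8 (against 8.8%), 1 in osm-11 (against 3.4%) and 1 in osm-7 (against 2.11%), and every one of these calls was higher in the mutant. For the dpy mutants this share is near that of the array as a whole. The genes lbp-4 and lbp-9 were lower instead, in osm-8, dpy-9 and dpy-10.

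**Figure D1:**
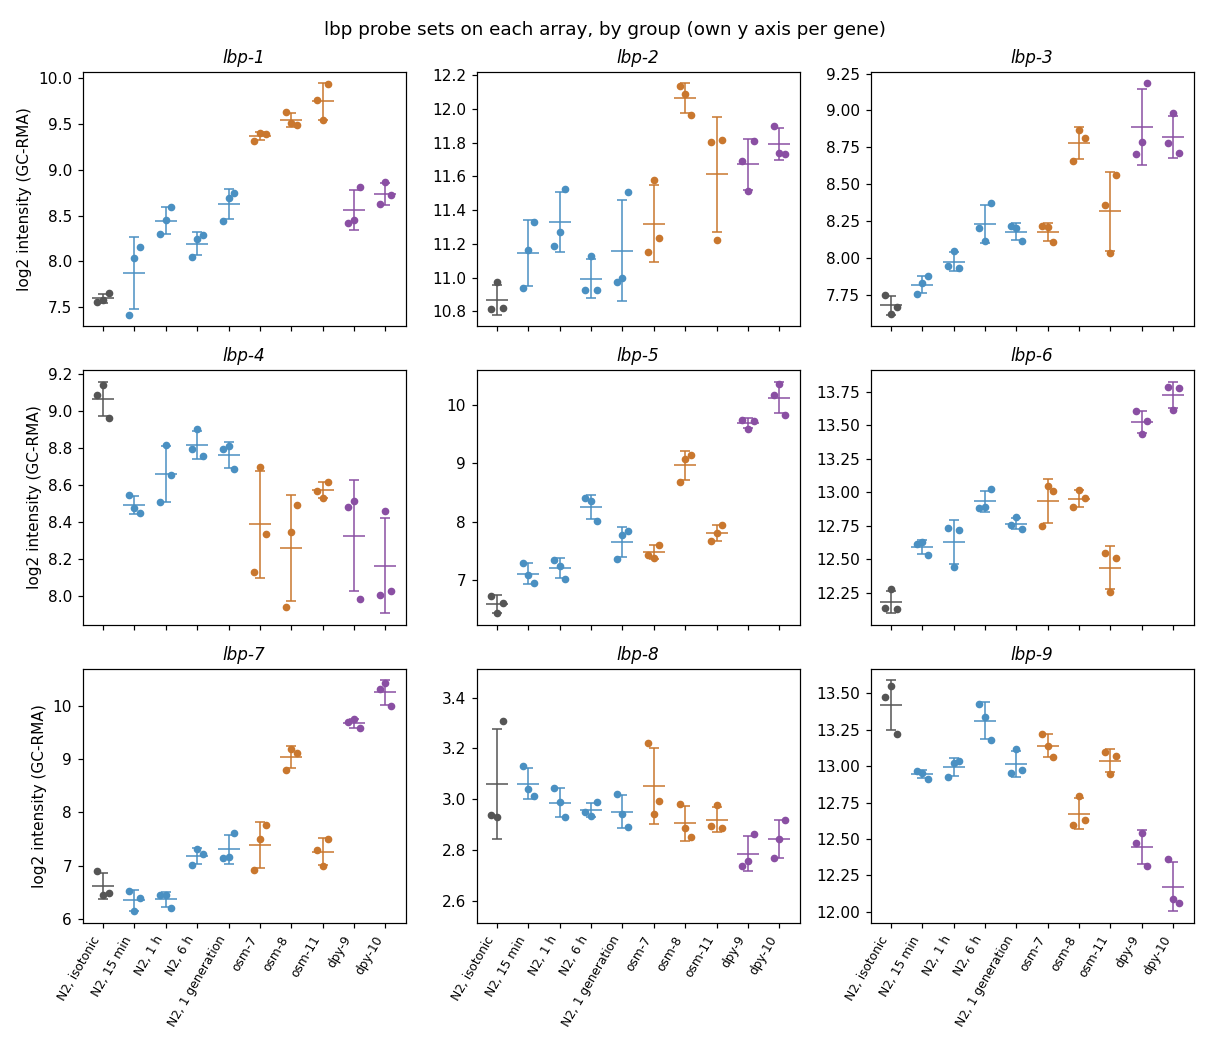
Log2 intensity (GC-RMA) of each lbp gene on each of the 30 arrays, by group, with points for arrays, a horizontal bar for the group mean and error bars for the SD (n = 3), and a separate y axis for each gene. lbp-1 stands highest in osm-7, osm-8 and osm-11, lbp-5 and lbp-7 stand highest in dpy-9 and dpy-10 with osm-8 next, and lbp-9 stands lowest in dpy-9 and dpy-10.

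The secreted carriers come first. Isotonic N2 arrays held lbp-1 at 7.56, 7.58 and 7.65 log2 units, osm-7 arrays at 9.32, 9.41 and 9.39, osm-8 arrays at 9.63, 9.51 and 9.49, and osm-11 arrays at 9.77, 9.54 and 9.93. The values were 8.63, 8.87 and 8.73 in dpy-10 and 8.42, 8.45 and 8.81 in dpy-9. Every mutant array lay above every isotonic N2 array, and every osm-7, osm-8 and osm-11 array lay above every dpy-9 and dpy-10 array. Shares of all probe sets above isotonic N2 without overlap were 14.4% in osm-7, 24.1% in osm-8 and 15.6% in osm-11. In dpy-9 and dpy-10 they were 30.6% and 32.6%. Arrays of the dpy mutants lay below those of osm-7 and osm-11 for 30.9%, and osm-8 arrays lay above those of the dpy mutants for 22.6%.

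Relative to N2, lbp-1 rose 4.45-fold in osm-11 (log2 change 2.15, SE 0.13, adjusted p = 6.93e-09, limma), 3.86-fold in osm-8 (1.95, SE 0.13, adjusted p = 5.83e-09) and 3.42-fold in osm-7 (1.78, SE 0.13, adjusted p = 9.1e-08). It also rose in dpy-9 by 0.96 log2 units (adjusted p = 6.97e-06) and in dpy-10 by 1.15 (adjusted p = 8.91e-07), without reaching 3-fold. The difference between these mutants was itself tested: the mean of dpy-9 and dpy-10 was lower than the mean of osm-7 and osm-11 by a log2 difference of -0.91 (95% interval -1.11 to -0.71, adjusted p = 2.25e-07, limma). Between osm-8 and the mean of osm-7 and osm-11 the difference was -0.02, with an interval of -0.26 to 0.23. In the order of its group means, lbp-1 ran from osm-11 (9.75) through osm-8 (9.54) and osm-7 (9.37) to dpy-10 (8.74), and the neighbours osm-11 and osm-8 overlapped while osm-8 and osm-7 did not.

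On the X chromosome of the WBcel235 assembly lbp-3, lbp-1 and lbp-2 follow each other with 0 other protein-coding genes between them, and lbp-1 and lbp-3 ordered the mutants differently. In worms LBP-3 has been described as a carrier that the intestine secretes and that acts on neurons. The probe set of lbp-3 went from 7.63 to 7.75 in isotonic N2 up to 8.71 to 8.98 in dpy-10, 8.70 to 9.18 in dpy-9 and 8.66 to 8.87 in osm-8. It rose 2.31-fold in dpy-9 (adjusted p = 2.66e-06, limma), 2.21-fold in dpy-10 and 2.14-fold in osm-8, against a log2 change of 0.64 in osm-11 (adjusted p = 0.00624) and 0.50 in osm-7, which missed the test (adjusted p = 0.0359). Here the mean of dpy-9 and dpy-10 was above that of osm-7 and osm-11 by 0.61 (interval 0.38 to 0.83, adjusted p = 8.77e-05, limma), the reverse of lbp-1.

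The third neighbour, lbp-2, rose most in osm-8, by 1.19 log2 units (adjusted p = 1.83e-05, limma), from 10.82 to 10.97 on the isotonic N2 arrays to between 11.96 and 12.13. It rose by 0.92 in dpy-10, 0.80 in dpy-9 and 0.74 in osm-11 and missed the test in osm-7, where its change was 0.45. The difference between the dpy mutants and the osm-7 and osm-11 pair was 0.26 (interval 0.02 to 0.51, adjusted p = 0.0468). The osm-11 results of lbp-2 and lbp-3 were the least firm of these. Leaving out 1 array took lbp-2 to an adjusted p of 0.0123 to 0.0211 (isotonic N2 replicates 1 and 3, osm-11 replicates 1 and 3). For lbp-3 it was 0.015 to 0.037 (each isotonic N2 replicate, osm-11 replicates 1 and 3). With only the arrays compared in the fit, both missed the test (adjusted p = 0.0408 and 0.036, limma). After centring lbp-3 missed it as well (0.0163).

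Of the intracellular carriers, lbp-5 and lbp-7 changed most. LBP-5 has been linked to fat storage and energy use in the worm. Isotonic N2 arrays held lbp-5 at 6.74, 6.44 and 6.61, osm-8 arrays at 8.69, 9.08 and 9.14, dpy-9 arrays at 9.75, 9.59 and 9.72 and dpy-10 arrays at 10.17, 10.36 and 9.83. The osm-7 arrays held it at 7.44, 7.39 and 7.61 and the osm-11 arrays at 7.68, 7.81 and 7.95. All 15 mutant arrays lay above the isotonic N2 arrays, and none of the dpy-9, dpy-10 and osm-8 arrays overlapped with those of osm-7 and osm-11. Arrays of the dpy mutants lay above those of osm-7 and osm-11 for 20.3% of all probe sets, and osm-8 arrays for 14.4%. The shares of all probe sets above isotonic N2 are those given for lbp-1 in the same mutants.

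Relative to N2, lbp-5 rose 11.5-fold in dpy-10 (log2 change 3.52, SE 0.16, adjusted p = 1.12e-11, limma), 8.5-fold in dpy-9 (3.09, SE 0.16, adjusted p = 5.64e-11) and 5.17-fold in osm-8 (2.37, SE 0.16, adjusted p = 4.28e-09). In osm-7 and osm-11 it rose by 0.88 and 1.22 log2 units (adjusted p = 0.000912 and 3e-05). Across all 10 groups its means fell into the order dpy-10 (10.12), dpy-9 (9.68), osm-8 (8.97), N2 at 6 h (8.26), osm-11 (7.81), N2 after 1 generation (7.66), osm-7 (7.48), N2 at 1 h (7.21), N2 at 15 min (7.12) and isotonic N2 (6.60). Arrays overlapped between osm-11 and 1 generation, between 1 generation and osm-7, and between 1 h and 15 min, and between no other neighbours in that order.

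The lbp-7 probe set gave 6.90, 6.46 and 6.49 in isotonic N2, 10.32, 10.43 and 9.99 in dpy-10, 9.69, 9.74 and 9.57 in dpy-9 and 8.80, 9.19 and 9.11 in osm-8. It gave 6.92, 7.50 and 7.76 in osm-7 and 7.29, 7.005 and 7.50 in osm-11. The lowest osm-7 array (6.92) lay just above the highest isotonic N2 array, whereas the osm-8, dpy-9 and dpy-10 arrays stood clear of both. The shares of all probe sets given for lbp-5 and lbp-1 apply here too.

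Relative to N2, lbp-7 rose 12.4-fold in dpy-10 (log2 change 3.63, SE 0.21, adjusted p = 2.17e-10, limma), 8.3-fold in dpy-9 (3.05, SE 0.21, adjusted p = 1.97e-09) and 5.34-fold in osm-8 (2.42, SE 0.21, adjusted p = 9.29e-08). Its changes of 0.78 in osm-7 and 0.65 in osm-11 missed the test (adjusted p = 0.0182 and 0.0316). The order of its means was dpy-10 (10.25), dpy-9 (9.67), osm-8 (9.03), osm-7 (7.39), 1 generation (7.31), osm-11 (7.26), 6 h (7.19), isotonic N2 (6.62), 1 h (6.37) and 15 min (6.35), with no overlap among the first 3 or between osm-8 and osm-7, and with overlap between each later pair of neighbours except 6 h and isotonic N2.

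The mutants were then compared with each other directly, in contrasts that give the N2 means no weight, although the isotonic N2 arrays still enter the estimate of spread. The mean of dpy-9 and dpy-10 exceeded that of osm-7 and osm-11 by 2.25 log2 units for lbp-5 (interval 2.02 to 2.49, adjusted p = 1.95e-11, limma) and by 2.63 for lbp-7 (interval 2.32 to 2.94, adjusted p = 9.69e-11), and these 2 of 8 members were called where 16.1% of all probe sets were. The osm-8 mutant lay between: lbp-7 was above the osm-7 and osm-11 mean by 1.70 (interval 1.33 to 2.08, adjusted p = 1.38e-06), the only 1 of 8 members called in that contrast against 5.42% of probe sets, and lbp-5 was above it by 1.32 (interval 1.03 to 1.61). Both genes were lower in osm-8 than in the mean of the dpy mutants by the same log2 difference of -0.93 (adjusted p = 3.22e-05 for lbp-5 and 0.000476 for lbp-7), where 0 of 8 members reached 3-fold against 7.36%.

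Within each pair of mutants no member passed the test. Between osm-11 and osm-7, 0 of 8 passed (1.18% of all probe sets did), although 3 had an unadjusted p (limma) under 0.05, and the largest difference was that of lbp-6, at -0.50 (interval -0.75 to -0.24, adjusted p = 0.0403). Between dpy-10 and dpy-9, 0 of 8 passed (against 3.53%), with 3 under 0.05 unadjusted, and the intervals still held differences of 0.11 to 0.77 for lbp-5 and 0.14 to 1.01 for lbp-7.

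**Figure D2:**
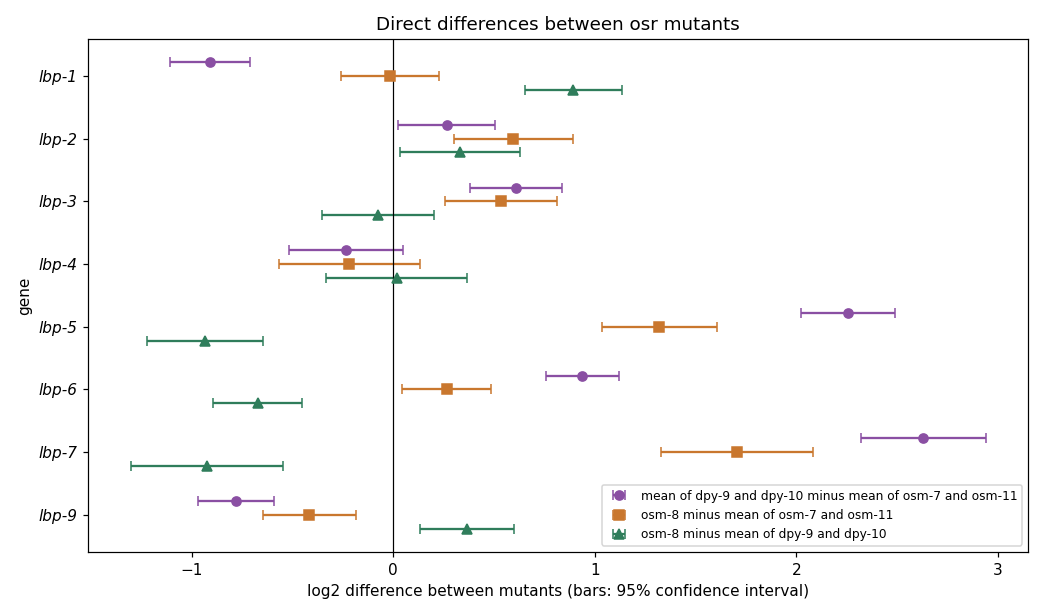
Log2 differences between osr mutants for the 8 tested lbp genes, with 95% confidence intervals from limma. lbp-5 and lbp-7 lie far to the right when the dpy mutants are set against osm-7 and osm-11 (2.25 and 2.63), lbp-1 lies to the left (-0.91), and osm-8 falls between the pairs for lbp-5 and lbp-7.

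The gene lbp-6 lies beside lbp-5 on chromosome I, with 1 protein-coding gene between them, and it rose in 4 of the 5 mutants by smaller amounts. Its arrays ran from 12.13 to 12.28 in isotonic N2, from 13.62 to 13.78 in dpy-10 and from 13.44 to 13.60 in dpy-9. It rose by 1.54 log2 units in dpy-10 (adjusted p = 9.83e-09, limma), 1.34 in dpy-9, 0.77 in osm-8 and 0.75 in osm-7. Its change of 0.26 in osm-11 missed the test (adjusted p = 0.136). With only the arrays compared in the fit, its change in osm-7 missed it too (adjusted p = 0.0154, limma). The dpy mutants exceeded the mean of osm-7 and osm-11 by 0.94 (interval 0.76 to 1.12, adjusted p = 5.54e-08).

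Both members that were lower, lbp-4 and lbp-9, lie on chromosome V. The lbp-9 arrays ran from 13.22 to 13.55 in isotonic N2, from 12.06 to 12.37 in dpy-10, from 12.31 to 12.54 in dpy-9 and from 12.60 to 12.79 in osm-8, with no overlap between mutant and wild type. Of all probe sets tested, 47.4% in dpy-10, 48.3% in dpy-9 and 39.8% in osm-8 also lay below isotonic N2 without overlap. The gene fell in all 3, with log2 changes of -1.25 in dpy-10 (adjusted p = 2.13e-07, limma), -0.97 in dpy-9 (4.02e-06) and -0.74 in osm-8 (0.000164), or -1.03, -0.74 and -0.59 relative to the median of all probe sets. The changes of lbp-9 in osm-7 and osm-11, -0.28 and -0.38, missed the test.

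Values of lbp-4 went from 8.96 to 9.14 in isotonic N2 to 8.01 to 8.46 in dpy-10, 7.98 to 8.51 in dpy-9 and 7.94 to 8.49 in osm-8, with no overlap (the shares of all probe sets given for lbp-9 apply). It fell in these mutants, with log2 changes of -0.90, -0.74 and -0.80 (adjusted p = 0.000455, 0.00242 and 0.00235, limma), or -0.69, -0.51 and -0.64 relative to the median. Without dpy-9 replicate 3 or isotonic N2 replicate 2 its adjusted p in dpy-9 was 0.017 or 0.0107, and without osm-8 replicate 1 or isotonic N2 replicate 2 its adjusted p in osm-8 was 0.0161 or 0.0112. After quantile normalization its change in dpy-9 was -0.39 (adjusted p = 0.0272). In osm-7 and osm-11 its changes of -0.68 and -0.49 missed the test (adjusted p = 0.0244 and 0.0691).

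Counting the members that passed the adjusted p alone, dpy-10, dpy-9 and osm-8 each had 6 higher and 2 lower of 8. Of all probe sets, 28.8% were higher and 35.8% lower in dpy-10, 26.2% and 35.7% in dpy-9, and 16.9% and 21.6% in osm-8. In osm-11 4 members were higher (against 8.5%) and 0 lower (against 4.98%), and in osm-7 3 were higher (against 5.62%) and 0 lower (against 2.09%). With each array centred on its median, 3 were higher and 1 lower in osm-11, and 4 and 1 in osm-7. The median change over the 8 members was 1.14 in dpy-10, 1.09 in dpy-9, 1.15 in osm-8, 0.64 in osm-11 and 0.63 in osm-7.

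Markers of several tissues moved in the mutants. All 9 oocyte and early embryo markers were lower in dpy-10, dpy-9 and osm-8 (median log2 changes -2.26, -1.92 and -0.87), and their summed intensity was 57842 to 62600 in isotonic N2, 11049 to 13760 in dpy-10, 14333 to 18809 in dpy-9 and 31526 to 34292 in osm-8. All 6 body wall muscle markers tested were higher (medians 1.77, 1.63 and 1.17), with sums of 11208 to 12946 in isotonic N2, 35756 to 36441 in dpy-10, 32386 to 33125 in dpy-9 and 22691 to 24488 in osm-8. In osm-7 and osm-11 the oocyte sums were 45783 to 51960 and 42317 to 49011, with 0 and 3 of 9 markers lower. Muscle markers were higher there too, 3 of 6 in osm-7 (sum 18212 to 20024) and 2 of 6 in osm-11 (14391 to 19850).

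The 7 sperm probe sets summed to 2065 to 2340 in dpy-10, 2115 to 2564 in dpy-9 and 784 to 941 in osm-8, against 51.4 to 61.8 in isotonic N2, 46.7 to 58.9 in osm-7 and 47.8 to 93.1 in osm-11. Because their level in isotonic N2 is near the floor, a sperm marker could pass the filter through the groups where it is high, so these sums are a description. Of the 8 intestine markers, 5 rose and 1 fell in dpy-10 and 4 rose and 2 fell in dpy-9. In osm-8 4 rose and 1 fell. Their median log2 changes in dpy-10, dpy-9 and osm-8 were 1.06, 0.56 and 0.71. A sum weighs the brightest markers most, such as the yolk gene vit-5, at log2 15.67 in isotonic N2 and 13.88 in dpy-9. The sum was 93143 to 103529 in isotonic N2, 76189 to 83538 in dpy-10, 51768 to 62103 in dpy-9 and 97047 to 100330 in osm-8. It was 107948 to 128981 in osm-7, where 3 of 8 rose, and 112287 to 130139 in osm-11, where 4 rose, with none lower in either. Hypodermis and cuticle markers had 4 higher and 1 lower of 7 in dpy-10, 5 higher and 2 lower in dpy-9, and 4 higher in osm-8. Some of these markers moved in each of the 5 mutants, but not the same ones: no sperm marker passed in osm-7 or osm-11, and no oocyte marker in osm-7. The part of the markers in the lbp changes, those of lbp-1 in osm-7 and osm-11 included, was not tested.

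**Figure D3:**
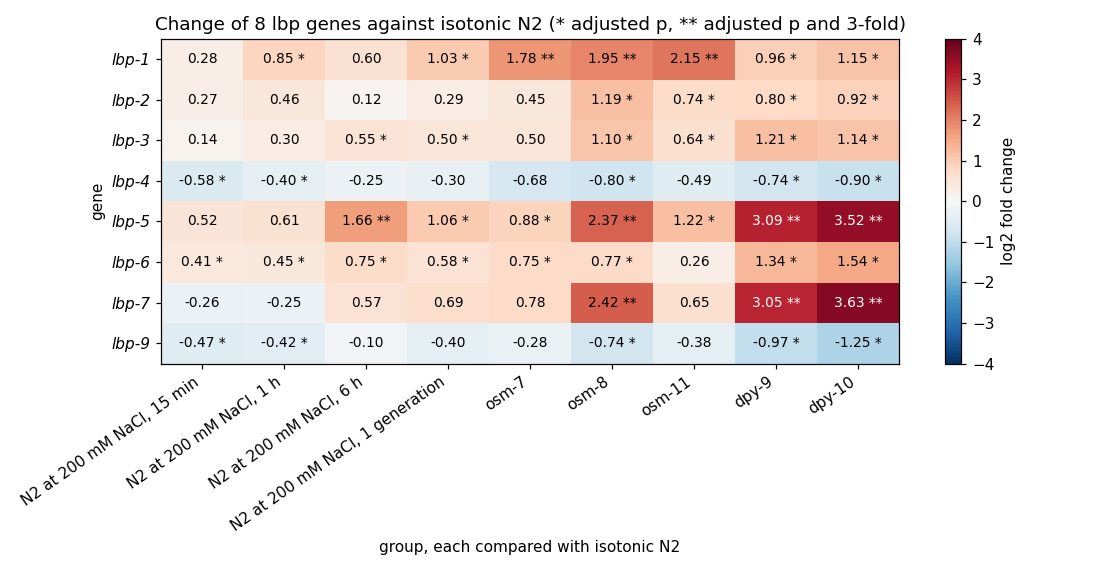
Log2 fold change of the 8 tested lbp genes in 4 exposures of N2 to 200 mM NaCl and in 5 osr mutants, each against isotonic N2, with 1 asterisk for an adjusted p of at most 0.01 and 2 asterisks where the change also reached 3-fold. The 10 calls are lbp-1 in osm-7, osm-8 and osm-11, lbp-5 at 6 h and in osm-8, dpy-9 and dpy-10, and lbp-7 in osm-8, dpy-9 and dpy-10, and lbp-4 and lbp-9 are below 0 in all 9 columns.

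In wild type worms under hypertonic exposure lbp-5 was the only member called, at 6 h. At 15 min and 1 h, 0 of 8 members were called (1.56% and 1.15% of all probe sets were), at 6 h 1 was (against 1.36%), and after 1 generation 0 were (against 1.18%). By the adjusted p alone, 1 member was higher (against 5.86% of all probe sets) and 2 lower (against 6.24%) at 15 min. At 1 h 2 were higher (against 4.85%) and 2 lower (against 2.15%), and at 6 h 3 were higher (against 3.89%) and 0 lower (against 1.82%). After 1 generation 4 were higher (against 5.76%) and 0 lower (against 1.95%), or 4 and 1 with each array centred on its median. In an F test over the 4 exposures 7 of 8 members passed (against 14.9% of all probe sets), the exception being lbp-2 (adjusted p = 0.166), and lbp-5 alone also reached 3-fold (against 2.9%).

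The 6 h arrays held lbp-5 at 8.40, 8.35 and 8.02, the 15 min arrays at 7.30, 7.10 and 6.95, the 1 h arrays at 7.35, 7.25 and 7.02 and the 1 generation arrays at 7.36, 7.77 and 7.84. No exposed array overlapped with the isotonic arrays, and the 6 h arrays stood above all others of the wild type. Of all probe sets, 12.2% at 15 min, 14.2% at 1 h, 12.3% at 6 h and 12.8% after 1 generation lay above isotonic N2 without overlap. These shares also apply to lbp-7 and lbp-1 below. At 6 h lbp-5 was 3.16-fold higher (log2 change 1.66, SE 0.15, adjusted p = 1.46e-05, limma), and after 1 generation it was up by 1.06 log2 units (adjusted p = 0.000499), while its changes of 0.52 and 0.61 at 15 min and 1 h missed the test (adjusted p = 0.0273 and 0.0187). With only the arrays compared in the fit, the 1 generation change missed it too (adjusted p = 0.0194, limma).

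The 6 h value is close to the 3-fold limit: without isotonic N2 replicate 2 it was 1.58, and after quantile normalization it was 1.44, both under 3-fold with an adjusted p that still passed. From 1 h to 6 h lbp-5 rose by 1.05 log2 units (interval 0.72 to 1.38, adjusted p = 0.000535, limma), and from 6 h to 1 generation its difference of -0.60 missed the test (interval -0.93 to -0.27, adjusted p = 0.0289). This contrast of 6 h with 1 h was passed by 2 of 8 members, against 6.43% of all probe sets.

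The other member was lbp-7, which gave 6.53, 6.14 and 6.39 at 15 min, 6.46, 6.44 and 6.21 at 1 h, 7.02, 7.32 and 7.22 at 6 h and 7.14, 7.16 and 7.61 after 1 generation. The early arrays overlapped with isotonic N2 and the late ones did not. It rose by 0.81 from 1 h to 6 h (interval 0.47 to 1.16, adjusted p = 0.0047, limma), a change that missed the test (adjusted p from 0.0123 to 0.0239) without any single replicate at 1 h, or without replicate 2 or 3 at 6 h. Against isotonic N2 its changes were -0.26, -0.25, 0.57 and 0.69 in the order of exposure, and none passed.

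Values of lbp-1 were 7.42, 8.03 and 8.16 at 15 min, 8.30, 8.45 and 8.59 at 1 h, 8.05, 8.24 and 8.29 at 6 h and 8.44, 8.69 and 8.75 after 1 generation. Arrays at 15 min overlapped with the isotonic arrays, and those of the 3 longer exposures did not. The gene rose by 0.85 at 1 h (adjusted p = 0.00417, limma) and by 1.03 after 1 generation (adjusted p = 0.000983), and its changes of 0.28 at 15 min and 0.60 at 6 h missed the test. The 1 h result did not pass (adjusted p of 0.0144 to 0.0208) without isotonic N2 replicate 1 or 2 or without replicate 2 or 3 at 1 h.

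The gene lbp-6 passed at every exposure, with rises of 0.41 at 15 min, 0.45 at 1 h, 0.75 at 6 h (adjusted p = 6.67e-05, limma) and 0.58 after 1 generation, and lbp-3 rose by 0.55 at 6 h (adjusted p = 0.000303) and 0.50 after 1 generation. At the early exposures lbp-4 fell, with log2 changes of -0.58 at 15 min (adjusted p = 0.000457) and -0.40 at 1 h, and so did lbp-9, with -0.47 and -0.42. With all 30 arrays in 1 fit, lbp-4 had an adjusted p of 0.0137 at 15 min and 0.12 at 1 h, and with only the arrays compared 0.0116 and 0.083, so neither passed. With only the arrays compared, lbp-6 also missed at 15 min, 1 h and 1 generation (adjusted p = 0.0273, 0.0647 and 0.0141, limma). So did lbp-9 at 15 min and 1 h (0.0406 and 0.0753) and lbp-3 at 6 h and 1 generation (0.0223 and 0.0194). After quantile normalization lbp-6 missed at 15 min and 1 h (0.0243 and 0.0103), and after centring at 1 h (0.0305). Apart from lbp-4 at 15 min, each of these early results also went above an adjusted p of 0.01 without some single arrays: lbp-6 and lbp-9 at 15 min and lbp-6 at 1 h in 4 cases each (up to 0.0177), lbp-4 at 1 h in 7 cases (up to 0.0309) and lbp-9 at 1 h in 13 cases (up to 0.038), isotonic N2 replicate 1 being in every one of these sets.

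Tissue markers moved under exposure as well. At 15 min 5 of the 9 oocyte and early embryo markers were lower (median -0.37, summed intensity 45688 to 48520), 3 of 6 body wall muscle markers were higher (sum 17327 to 18705), and the sperm sum was 165 to 172. At 1 h 1 oocyte marker was lower, 4 of 6 muscle markers were higher (sum 17961 to 20261) and the sperm sum was 88.9 to 118. After 1 generation 1 oocyte marker was lower and 4 muscle markers were higher (sum 17368 to 19663). Intestine markers had 3 higher and 1 lower of 8 at 15 min, 2 and 1 at 1 h, and 4 and 0 after 1 generation. Their sum after 1 generation was 107437 to 113512, against 93143 to 103529 in isotonic N2. At each of these exposures 2 of 7 hypodermis and cuticle markers were higher and 0 lower, with a sum of 6527.9 to 8045.5 after 1 generation. At 6 h none of the oocyte, sperm or muscle markers passed, 1 of 7 hypodermis and cuticle markers was lower (sum 3169 to 3363, against 4296 to 5318 in isotonic N2), and 2 intestine markers rose and 2 fell. The part of these markers in the lbp changes at any exposure was not tested.

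Over the 10 group means the members differed in how alike their patterns were. The correlation was r = 0.96 for lbp-5 with lbp-7, 0.96 for lbp-3 with lbp-5, 0.94 for lbp-3 with lbp-7, 0.92 for lbp-5 with lbp-6 and 0.85 for lbp-4 with lbp-9. Among the neighbours on the X chromosome it was 0.85 for lbp-2 with lbp-3, 0.72 for lbp-1 with lbp-2 and 0.55 for lbp-1 with lbp-3. It was 0.34 for lbp-1 with lbp-5 and 0.36 for lbp-1 with lbp-7, and -0.87 for lbp-5 with lbp-9. These values describe 10 points that come from the same 30 arrays and carry no test.

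**Figure D4:**
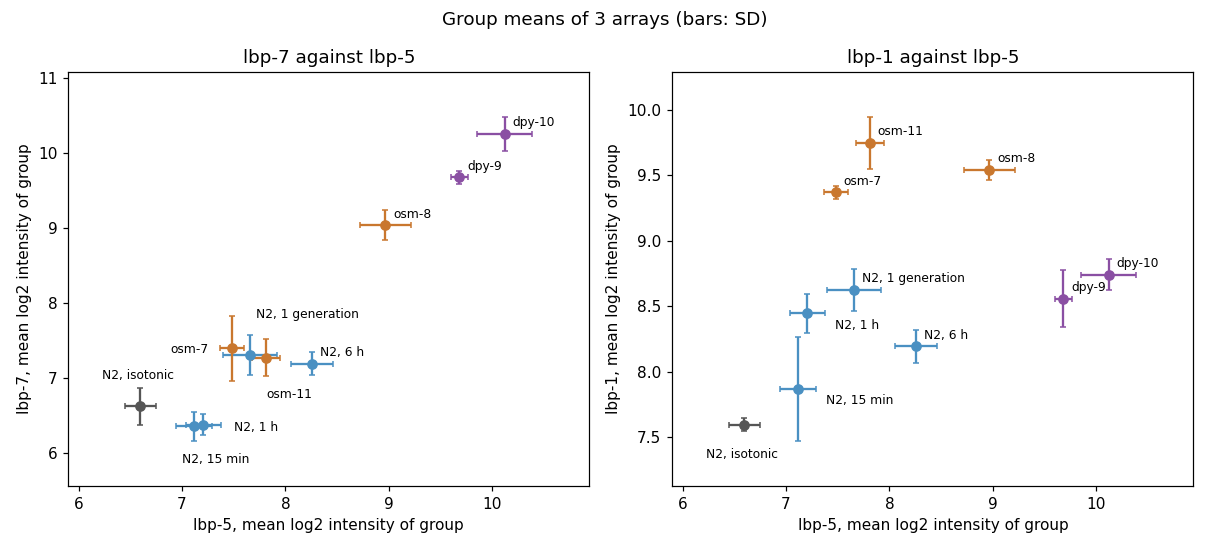
Group means of log2 intensity with SD bars (n = 3 arrays) for lbp-7 against lbp-5 and for lbp-1 against lbp-5. In the first panel dpy-10, dpy-9 and osm-8 lie at the top right (r = 0.96 over 10 group means), and in the second osm-7, osm-8 and osm-11 lie above the dpy mutants (r = 0.34).

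The search covered 8326 tested probe sets of single genes with a range of at least 1 log2 unit. The genes most like lbp-5 over the 10 means were Y54E5A.8 (r = 0.99), mab-31 (0.99) and pxmp-4 (0.98), and 71 genes exceeded r = 0.95. Most like lbp-7 were math-20, dos-1 and B0302.5 (each r = 0.98), and 238 genes exceeded 0.95. For lbp-1 the closest were W02D7.4 (0.93), Y71H2B.4 (0.92) and ZC513.7 (0.92), and 0 genes exceeded 0.95.

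Other genes of fatty acid handling were counted from lists. Of 35 beta-oxidation genes tested, 8, 9, 13 and 9 were higher at 15 min, 1 h, 6 h and 1 generation and at most 1 was lower. Of all probe sets, 5.86%, 4.85%, 3.89% and 5.76% were higher at these exposures and 6.24%, 2.15%, 1.82% and 1.95% lower. In the mutants 24 were higher and 3 lower in dpy-10, 21 and 3 in dpy-9, and 12 and 1 in osm-8, where 28.8%, 26.2% and 16.9% of all probe sets were higher and 35.8%, 35.7% and 21.6% lower; the same shares apply to the lists that follow. The counts were 8 and 1 in osm-11 and 5 and 1 in osm-7. Of all probe sets, 8.5% and 5.62% were higher in these 2 mutants and 4.98% and 2.09% lower. These shares and those of the exposures apply to the later lists too. Beta-oxidation shortens fatty acids by removal of acetyl units. Its largest rises were acdh-8, an acyl-CoA dehydrogenase, by 5.34 log2 units in dpy-9, and cpt-4, a carnitine palmitoyltransferase, by 4.79 in dpy-10, and its largest falls were those of hacd-1, a hydroxyacyl-CoA dehydrogenase, with a log2 change of -3.45 in dpy-9, and acdh-2, with -2.65 in osm-8.

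Of 32 tested genes for synthesis, elongation, desaturation and activation of fatty acids, 18 were higher and 5 lower in dpy-10, 14 and 6 in dpy-9 and 16 and 2 in osm-8, and in the wild type most passed at 6 h, with 10 higher and 1 lower. The acyl-CoA synthetases acs-20 and acs-18 rose by 4.01 and 3.43 in dpy-9 and acs-13 had a log2 change of -2.12 in dpy-10, while the stearoyl-CoA desaturase gene fat-7 had one of -4.14 at 6 h, the exposure at which lbp-5 was called.

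Other lipid carriers, 20 of them tested, had 11 higher and 5 lower in dpy-10, 9 and 6 in dpy-9 and 9 and 2 in osm-8, and 6 higher with none lower in each of osm-7 and osm-11. The fatty acid and retinol binding protein gene far-3 rose by 7.10 in dpy-9 and far-7 by 4.27 in osm-11, and the yolk protein genes vit-1 and vit-5 fell in dpy-9, with log2 changes of -1.96 and -1.79. Of 8 lipase and lipid droplet genes tested, 4 were higher in osm-8 and 3 each in osm-7 and osm-11 with none lower. In dpy-10 3 were higher and 1 lower, and in dpy-9 2 were higher and 1 lower. The lysosomal lipase genes lipl-1 and lipl-2 rose by 4.90 and 3.80 in osm-8, and the largest falls were those of lid-1, with -1.80 in dpy-10, and the triglyceride lipase gene atgl-1, with -0.46 at 15 min.

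Of 9 tested genes that act with LBP proteins in lipid signalling, nuclear receptors and neuropeptides among them, none passed at 15 min, at 6 h, at 1 generation or in osm-7, 1 was higher at 1 h and in osm-11, and 4 were higher in dpy-10, 3 in dpy-9 (with 1 lower) and 2 in osm-8, where 28.8%, 26.2% and 16.9% of all probe sets were higher. The neuropeptide gene nlp-11 rose by 2.06 in dpy-9, the lipogenic transcription factor gene sbp-1 by 1.46 in dpy-10, and the nuclear receptor gene nhr-13 fell, with -1.19 in dpy-9. In isotonic N2 acdh-8 (2.58), cpt-4 (3.71), acs-18 (2.09), nlp-11 (3.13), lipl-1 (3.39) and lipl-2 (3.19) were near or under the lowest value the filter kept. The size of their rises is therefore uncertain. Such a gene could pass the filter through the groups where it is high, and could then hardly be counted as lower. The counts of higher and lower genes in these lists are therefore a description.

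**Figure D5:**
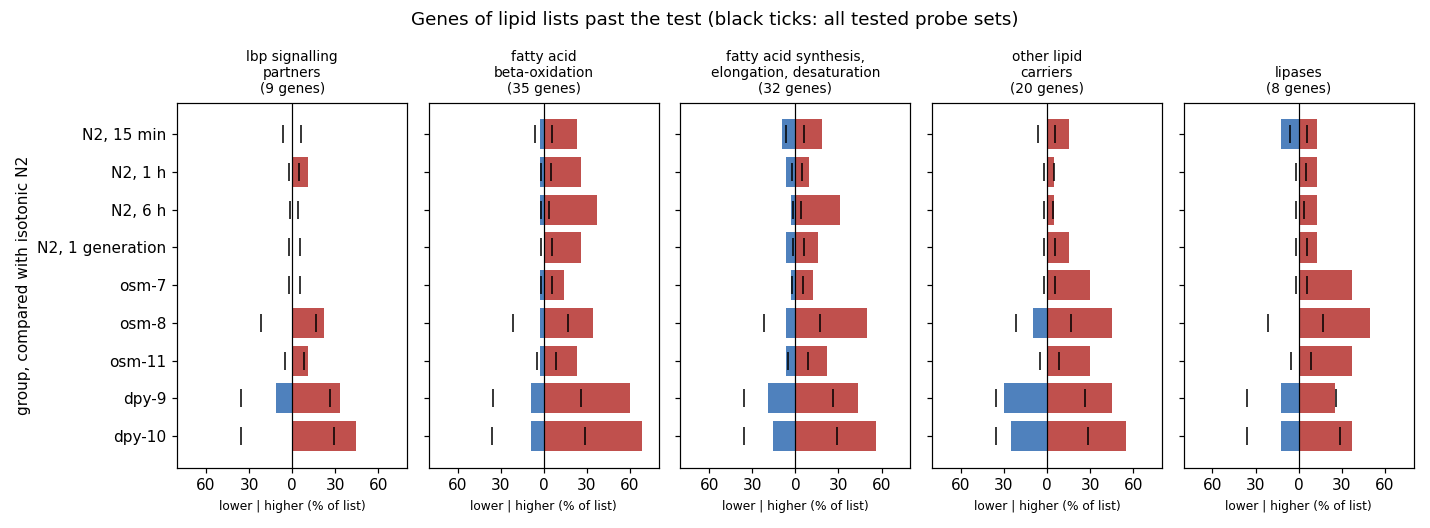
Share of each lipid gene list (percent of its tested genes) that was higher (right) or lower (left) at an adjusted p of at most 0.01, in each group against isotonic N2, with black ticks for the share of all tested probe sets. In dpy-9 and dpy-10 the beta-oxidation bars (21 and 24 of 35 higher) reach past the tick on the right and stop short of it on the left.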

How the data were processed

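RNA of whole young adults was hybridized to Affymetrix arrays, and the authors deposited 1 table of intensity values on a linear scale, made with GCRMA in Partek (versions are not given in the sources used here). GC-RMA corrects background and quantile-normalizes, which can hide a shift shared by most genes. Log2 of each intensity was taken. The study kept probe sets by present calls, which were not used here: as many probe sets as the study kept were taken by rank of their third-highest value over the 30 arrays, 61.5% of the 22548 that are not controls. Contrasts were fitted in limma 3.58.1 (R 4.3.3; Python 3.11.15 for tables), 1 fit over the 15 N2 arrays and 1 over the 18 isotonic arrays, in place of the permutation-based method of the study, at its thresholds. On simulated data for osm-8 against N2, 100 changes of each size were planted among 13866 probe sets, in those with a brighter signal in isotonic N2. Of these, 93% of 4-fold and 58% of 2-fold changes passed an adjusted p of 0.01. In the real comparison 38.5% of all probe sets passed, far more than were changed in the simulation, so these rates do not carry over to it.

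Probe sets were named from the platform annotation, and chromosomes and gene order came from RefSeq (WBcel235). The members and lists were chosen with earlier results of these data known. For a list gene with several probe sets, the brightest on average was used. All members are described, by array where called. The 3 genes most alike by correlation and up to 4 genes a list with the largest changes are named. The precision is limited by 3 arrays per group. Alternatives were the filter, an offset of 32, centring, quantile normalization, the arrays in the fit, the variance prior, thresholds, a replicate block and leaving out each array.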

Additional observations from a re-analysis of the deposited data

Results flagged for a closer look

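Differences between mutants of at least 3-fold at an adjusted p of at most 0.01 were found for lbp-5 and lbp-7, by a test of the difference itself (limma, 3 arrays per mutant). For lbp-7, osm-8 exceeded the mean of osm-7 and osm-11 by 1.70 log2 units (SE 0.18, adjusted p = 1.38e-06). For lbp-5 and lbp-7, the mean of dpy-9 and dpy-10 exceeded the mean of osm-7 and osm-11 by 2.25 (SE 0.11, adjusted p = 1.95e-11) and 2.63 (SE 0.15, adjusted p = 9.69e-11).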

How the results depend on the processing

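Over the 9 comparisons and 8 contrasts, 62 changes of lbp genes passed the adjusted p. Under 1688 alternative values 1585 kept direction and adjusted p, 103 kept the direction and lost the adjusted p, and 0 reversed. Changes that passed only under another setting are not in this tally. After 1 generation centring, quantile normalization and the offset each gave 4 higher and 1 lower, against 4 and 0 as deposited. In osm-7 centring gave 4 and 1 and quantile normalization 4 and 0, against 3 and 0. In osm-11 centring gave 3 and 1 and quantile normalization 5 and 1, against 4 and 0. The count called at 6 h and the count of the F test over exposures, each 1 (lbp-5), became 0 with 32 added to each intensity and 0 with quantile normalization, and ranged from 0 to 1 when single arrays were left out. Adding 32 to each intensity also took osm-8 against the mean of osm-7 and osm-11 from 1 to 0, a setting that shrinks all folds by its construction. With a 2-fold threshold the counts were 6 in dpy-10, 4 in dpy-9, 5 in osm-8, 2 in osm-11, 2 after 1 generation, 1 from 1 h to 6 h, 2 for osm-8 against the mean of osm-7 and osm-11, and 2 in the F test. The share of all probe sets at 2-fold was not counted, and it lies between those at 3-fold and at the adjusted p alone. In dpy-10 these were 28.3% and 64.6%, in dpy-9 24% and 62%, and in osm-8 8.8% and 38.5%. They were 3.4% and 13.5% in osm-11, 1.18% and 7.7% after 1 generation, and 1.72% and 6.43% from 1 h to 6 h. For the osm-8 contrast they were 5.42% and 18%, and for the F test 2.9% and 14.9%. Leaving out single arrays took 14 of the changes above an adjusted p of 0.01, in 78 of their values, none of them a call at 3-fold. Under the other settings the cause of lost results was not tested.

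Replicate numbers did not pair the samples: deviations of same-numbered arrays correlated at r = -0.44 to 0.29, in 0 of 9 groups was every pair over 0.1, and in 0 of 9 was every array closest to its own number. With the replicate number as a block the counts of lbp genes called stayed at 1 at 6 h, 2 in dpy-10, 2 in dpy-9 and 3 in osm-8, those over all probe sets changed by factors of 0.951 to 1.01, and lbp-3 in osm-11 (adjusted p = 0.0105) and lbp-7 from 1 h to 6 h (0.0104) no longer passed. Centring each array on its median moved the share of higher probe sets among those passing the adjusted p from 48.5% to 61.6% at 15 min, from 72.9% to 60% in osm-7 and from 63.1% to 41.7% in osm-11. Signal limits lbp-8, which lay at the floor on all arrays.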
